A study of Mus musculus with 12 samples.

Results

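A set of 10 genes that mark dendritic cells and plasmacytoid dendritic cells, or that control their development, was followed in RNA from purified bone endothelial cells (BECs) of young and aged mice. The genes were chosen by symbol: Siglech, Tcf4, Spib, Irf8, Batf3, Xcr1, Cd209a, Zbtb46, Itgax and Flt3. All 10 symbols matched 1 identifier each among the 37620 genes of the count table, and all 10 passed the filter on low counts in every comparison. The series held 12 RNA-seq libraries from c57/Bl6 mice in 4 groups of 3: females at 2 weeks, males at 2 weeks, females at 65 weeks and males at 65 weeks. The labels name no transgene, deletion or treatment in any group. Cells were selected on endomucin, a surface protein of bone capillary and sinusoidal endothelium, so each library reflects whatever cells that selection retained. The labels give the tibia as the source, whereas the study's methods describe crushing tibiae and femurs together, and of the RNA samples prepared for each group the 3 of best quality were sequenced. No label says that the libraries of a group came from separate animals, so the p-values measure the spread between these libraries, which may be technical in part.

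Dendritic cells take up antigen, process it and present it to T cells. Conventional dendritic cells of type 1 depend on Irf8 and Batf3 and carry the chemokine receptor Xcr1, those of type 2 carry lectins and present antigen to helper T cells, and plasmacytoid dendritic cells depend on Tcf4 and release type I interferon after sensing viral nucleic acid. All arise in the bone marrow from progenitors that respond to the cytokine receptor Flt3. Several of these genes are also used elsewhere: Spib and Irf8 in B cells, Itgax in macrophages and some B cells, and Tcf4 and Zbtb46 in endothelium.

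Total counts ranged from 35012947 to 44569600 in the 2-week libraries and from 26044743 to 34088694 in the 65-week libraries. Endothelial markers, which check the label of the cells, were abundant at 2 weeks and low at 65 weeks. The summed level of 12 of them ran from 2334 to 4315 CPM (the count of a gene scaled to a library total of 1000000) in the 2-week libraries and from 173 to 281 CPM in the 65-week libraries, and all 12 were lower at 65 weeks in each sex. Over the same libraries Ptprc, which encodes the leukocyte antigen CD45, rose from 144–201 to 482–685 CPM. The summed level of 12 B cell markers was 284 to 393 CPM at 2 weeks, 1032 to 1489 CPM in 65-week females, and 571, 450 and 1911 CPM in the 3 libraries of 65-week males. No gene of the 6 marker lists of other cell types was at or under 3 counts in every library of a group. Replicate 3 of the 65-week males stood apart from its group. Results of the chosen genes that rest on it are given with and without it. The same holds for the counts of called genes in the lists of dendritic cell genes and B cell markers. Male values of single genes of these lists, and calls of the other marker lists, are given only with it, so they may lean on this library. In bulk RNA, fewer cells of a type and less RNA per cell cannot be told apart.

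Differences were tested with edgeR, within each sex for age and within each age for sex, and a gene was called at a Benjamini-Hochberg adjusted p under 0.05 over all genes tested. Of the 10 genes, 5 were called between 65 and 2 weeks in females, against a background of 59.7% of all genes tested, and 6 in males, against 55.5%. In females 3 were higher (30.2% of all genes were) and 2 lower (29.5%). Among males 3 were higher (27.0% of all genes) and 3 lower (28.5%). The libraries of the ages did not overlap for 6 of the 10 genes in each sex, beside 69.2% of all genes in females and 65.4% in males. These shares were near the background, so the count of calls did not set the list apart. What follows therefore turns on which gene moved in which direction.

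**Figure D1:**
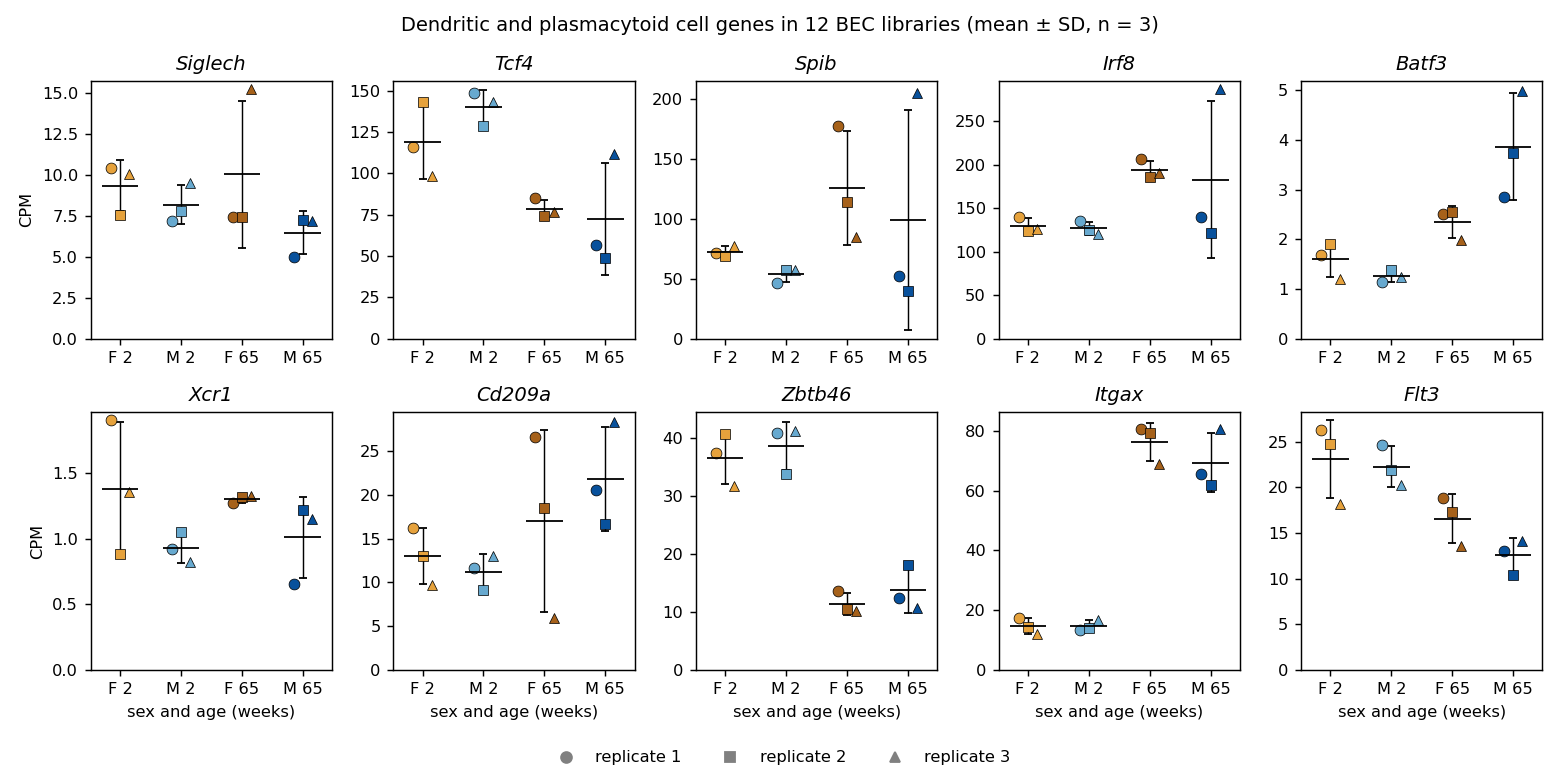
Level of each of the 10 genes in CPM (vertical axis, starting at 0 in each panel) by sex and age (horizontal axis). Points are single libraries, shaped by replicate number, and the horizontal line and bar are the mean and SD of 3 libraries. Itgax lies between 62.0 and 80.8 CPM in the 65-week libraries and between 11.99 and 17.4 CPM in the 2-week libraries, Zbtb46 shows the opposite order, and replicate 3 of the 65-week males is the highest of its group for Spib, Irf8 and Tcf4.

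The genes most closely tied to plasmacytoid dendritic cells did not move together. Siglech, a sialic acid-binding lectin that marks mouse plasmacytoid dendritic cells, was at 10.4, 7.54 and 10.1 CPM in 2-week females and at 7.44, 7.45 and 15.2 CPM in 65-week females. In males it was at 7.20, 7.80 and 9.52 CPM at 2 weeks and at 4.98, 7.26 and 7.18 CPM at 65 weeks. The ages overlapped in both sexes, and replicate 3 of the 65-week females lay well above the rest of its group. On the log2 scale the change was 0.23 ± 0.30 in females (SE; edgeR adjusted p = 0.525) and -0.22 ± 0.20 in males (edgeR adjusted p = 0.364), so no change in Siglech was resolved in either direction. Without replicate 3 of the 65-week females, the female value became -0.19 (edgeR adjusted p = 0.413).

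The stretch upstream of Siglech is shown because this gene, like Xcr1, was called in neither sex in libraries where other dendritic cell genes were. It runs over 250 bases before the RefSeq start (GRCm38.p6, chr7:55767934-55768183, plus strand), with capitals on the letters CACCTG, the reverse complement of CAGGTG, a form of E-box bound by E proteins such as Tcf4.
Siglech: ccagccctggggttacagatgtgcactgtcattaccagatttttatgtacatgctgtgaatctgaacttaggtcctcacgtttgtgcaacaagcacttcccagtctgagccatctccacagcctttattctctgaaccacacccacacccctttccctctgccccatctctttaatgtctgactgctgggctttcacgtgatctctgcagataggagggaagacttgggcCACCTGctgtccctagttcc
CAGGTG, searched on both strands, lay in 17.2% of the 32851 upstream windows of this length in the RefSeq table and in 3 of the 10 windows of the 9 genes described here that the table held (Siglech, Irf8 and Zbtb46). The palindrome CAGCTG lay in 13% of all windows and in none of these 10. The window of Xcr1, which is not shown, held none of the sequences searched for in this report. A match is a description of the letters and not of binding.

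Tcf4, the E protein that directs plasmacytoid dendritic cell identity and that endothelium also expresses, was lower at 65 weeks in both sexes. It was at 116, 143 and 98.3 CPM in 2-week females against 84.8, 74.2 and 76.9 CPM in 65-week females. Male libraries gave 148, 128 and 143 CPM at 2 weeks and 56.8, 49.0 and 112 CPM at 65 weeks. The ages did not overlap in either sex, although replicate 3 of the aged males lay well above the other two. The log2 fold change was -0.46 ± 0.12 in females (edgeR adjusted p = 0.0127) and -0.85 ± 0.26 in males (edgeR adjusted p = 0.0268). The male value was -1.28 ± 0.11 without replicate 3 of the 65-week males (edgeR adjusted p = 5.06e-05), and with any other male library left out Tcf4 was no longer called. The female call was lost when all 12 libraries shared 1 estimate of spread (edgeR adjusted p = 0.0977). Endothelial markers fell over the same comparison, and Cdh5, an adhesion protein of endothelial junctions, stood at 590.0 ± 159 CPM in young females (SD, n = 3), 11.8 ± 2.50 CPM in aged females, 737 ± 85.7 CPM in young males and 12.7 ± 1.81 CPM in aged males. Their part in the fall of Tcf4 was not tested.

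Spib, an Ets-family factor of plasmacytoid dendritic cells and of B cells, varied widely between the 65-week libraries. Its level was 71.5, 68.5 and 77.3 CPM in 2-week females and 177, 114 and 84.7 CPM in 65-week females. In males it was 46.0, 57.6 and 57.1 CPM at 2 weeks and 52.2, 39.7 and 205 CPM at 65 weeks. Females separated by age and males did not, since a pair of aged male libraries lay within or below the young range and the third was the highest of all 12. Spib rose in females by 0.92 ± 0.24 on the log2 scale (edgeR adjusted p = 0.0102), a call lost when all 12 libraries shared 1 estimate of spread (edgeR adjusted p = 0.112). The male value of 0.97 ± 0.54 was not called (edgeR adjusted p = 0.162) and turned to -0.095 ± 0.17 without replicate 3 of the 65-week males (edgeR adjusted p = 0.639). Leaving out replicate 2 of the 65-week males instead gave 1.33 ± 0.45 (edgeR adjusted p = 0.0424), so the male result rested on which library entered.

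Irf8, an interferon regulatory factor needed for type 1 conventional dendritic cells and also used in B cells and monocytes, rose with age in females. It was at 139.7, 124 and 126 CPM in 2-week females and at 206, 186 and 191 CPM in 65-week females. In males the values were 135, 125 and 120.2 CPM at 2 weeks and 140.1, 122 and 287 CPM at 65 weeks. Every aged female library lay above every young one, whereas aged and young males overlapped, with replicate 3 of the aged males far above the rest. The rise in females was 0.72 ± 0.09 on the log2 scale (edgeR adjusted p = 0.000196), a 1.65-fold higher level. The male value of 0.63 ± 0.28 was not called (edgeR adjusted p = 0.0888) and was 0.17 ± 0.11 without replicate 3 of the 65-week males (edgeR adjusted p = 0.195). Without replicate 2 of that group Irf8 was called at 0.83 ± 0.24 (edgeR adjusted p = 0.0243), and 7 of the 10 genes were then called, against 53.7% of all genes tested.

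The library in which Spib, Irf8 and Tcf4 were highest among aged males was also the one with the most B cell marker RNA. Cd79a, a subunit of the B cell receptor, had the highest mean CPM of the 12 B cell markers over all 12 libraries, a ranking of counts with no division by length, and Cd79b was above it at 2 weeks. Cd79a ran from 111 to 412 CPM over the 65-week males and from 227 to 326 CPM over the 65-week females. Of the 12 markers 9 were higher and 1 lower in 65-week females, and 9 were higher and 2 lower in 65-week males. Of all genes tested, 30.2% were higher in females and 27.0% in males. The marker lower in females was Igll1, at -2.54 ± 0.39 on the log2 scale. Without replicate 3 of the 65-week males, 9 markers were higher and 3 lower in males, and their median log2 fold change was 1.05 instead of 2.01. Within both sexes at 65 weeks, the library with the highest B cell sum had the highest Spib, Irf8 and Tcf4. That library also had the highest Flt3, Cd209a and Itgax in both sexes, so the pattern was not particular to these 3 genes. At 2 weeks the library with the highest B cell sum of each sex had the highest Spib but the lowest Tcf4. Irf8 was not at its highest there. The part of B cells in Spib, Irf8 and Tcf4 was not tested.

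**Figure D2:**
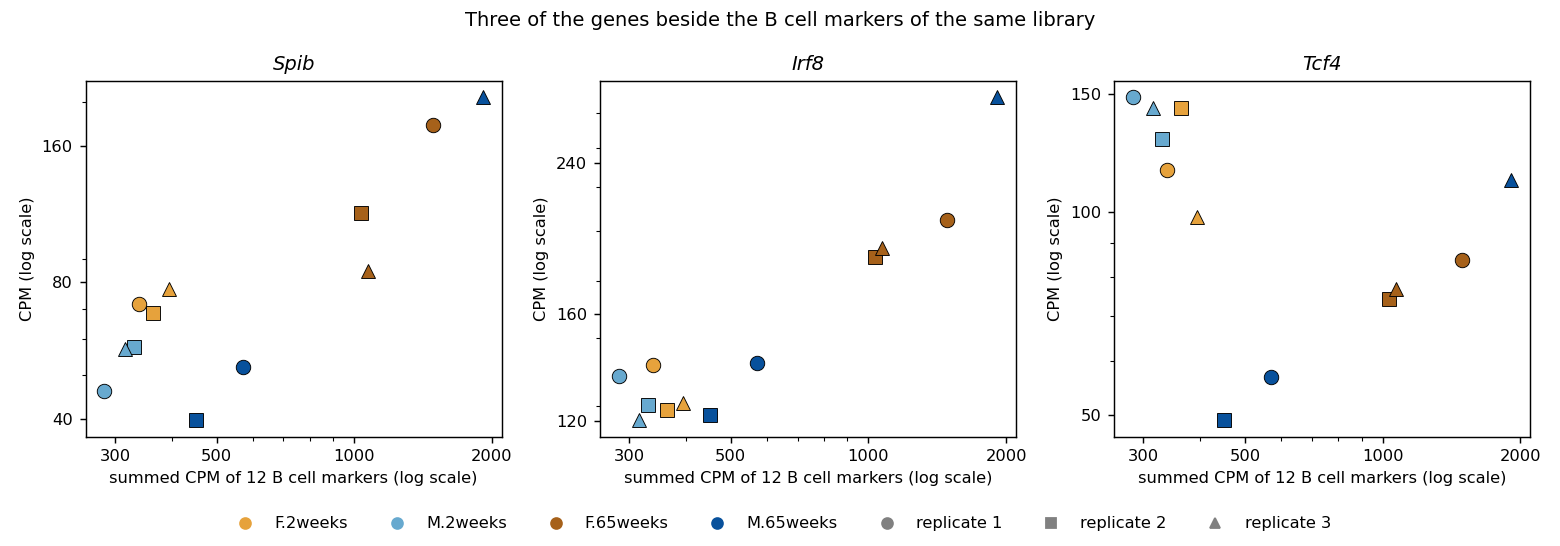
CPM of Spib, Irf8 and Tcf4 (vertical axes, log scale) against the summed CPM of 12 B cell markers in the same library (horizontal axes, log scale); each point is 1 of 12 libraries, coloured by group and shaped by replicate. Replicate 3 of the 65-week males, at a B cell sum of 1911 CPM, lies at 205 CPM of Spib, 287 CPM of Irf8 and 112 CPM of Tcf4, while replicates 1 and 2, at 571 and 450 CPM, lie at or below 52.2 CPM of Spib and 56.8 CPM of Tcf4.

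Of the genes of type 1 conventional dendritic cells, Batf3 and Xcr1 had few counts. Batf3, a basic leucine zipper factor that type 1 cells need, was at 1.69, 1.91 and 1.20 CPM in 2-week females and at 2.51, 2.55 and 1.98 CPM in 65-week females. Young males gave 1.14, 1.39 and 1.24 CPM and aged males 2.85, 3.74 and 4.99 CPM. The ages did not overlap in either sex. In males Batf3 rose by 1.72 ± 0.27 on the log2 scale (edgeR adjusted p = 0.00112), a 3.30-fold higher level that stayed called under all 14 alternatives. The female value of 0.69 ± 0.27 was not called (edgeR adjusted p = 0.056), was called under 2 of 14 alternatives, and rested on 46 to 87 counts per library.

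Xcr1, the receptor for the chemokine Xcl1 and a marker of type 1 cells, had 18 to 70 counts per library. It was at 1.91, 0.885 and 1.36 CPM in 2-week females and at 1.27, 1.32 and 1.33 CPM in 65-week females. In males it was at 0.920, 1.05 and 0.826 CPM at 2 weeks and at 0.659, 1.22 and 1.15 CPM at 65 weeks. The ages overlapped in both sexes. Its log2 fold change was 0.05 ± 0.35 in females (edgeR adjusted p = 0.913) and 0.22 ± 0.35 in males (edgeR adjusted p = 0.609), and no change was resolved with these counts.

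Cd209a, a C-type lectin of type 2 conventional dendritic cells and of monocyte-derived cells, was at 16.2, 13.1 and 9.74 CPM in 2-week females and at 26.6, 18.5 and 5.90 CPM in 65-week females. In males it was at 11.6, 9.10 and 12.99 CPM at 2 weeks and at 20.6, 16.7 and 28.4 CPM at 65 weeks. The ages separated in males, and in females the aged group held both the highest and the lowest library. The rise in males was 1.07 ± 0.21 on the log2 scale (edgeR adjusted p = 0.00344), a 2.10-fold higher level called under all 14 alternatives. The female value was 0.52 ± 0.46 (edgeR adjusted p = 0.352), and 0.93 ± 0.23 without replicate 3 of the 65-week females (edgeR adjusted p = 0.0134). Cd209a is one of a family of similar genes, and how reads shared among them were counted is not given in the sources used here.

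Among the genes shared by dendritic cells more widely were the largest rise and the largest fall of the 10. Itgax encodes CD11c, the integrin used to gate dendritic cells and also found on macrophages. It was at 17.4, 14.4 and 11.99 CPM in 2-week females and at 80.8, 79.2 and 69.0 CPM in 65-week females. In males it was at 13.3, 14.0 and 16.8 CPM at 2 weeks and at 65.4, 62.0 and 80.8 CPM at 65 weeks. The lowest aged library, at 62.0 CPM, lay far above the highest young one, at 17.4 CPM. Itgax rose by 2.52 ± 0.14 on the log2 scale in females (edgeR adjusted p = 4.91e-06) and by 2.35 ± 0.13 in males (edgeR adjusted p = 6.74e-06), which is 5.75-fold and 5.12-fold. It stayed called under all 14 alternatives in each sex. Monocyte and macrophage markers summed to 3032–5222 CPM at 2 weeks and 3264–4917 CPM at 65 weeks. Of these 12 markers 9 were higher and 2 lower in aged females, and 6 were higher and 2 lower in aged males; the most counts over all libraries, with no division by length, came from Vcam1, an adhesion molecule that endothelium and stroma also express.

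The window upstream of Itgax is shown because this gene had the largest rise of the 10. It covers the 250 bases before the RefSeq start (GRCm38.p6, chr7:128129300-128129549, plus strand), with capitals on TGAGTCA, a match to TGANTCA, the site of AP-1 family dimers, to which Batf3 belongs.
Itgax: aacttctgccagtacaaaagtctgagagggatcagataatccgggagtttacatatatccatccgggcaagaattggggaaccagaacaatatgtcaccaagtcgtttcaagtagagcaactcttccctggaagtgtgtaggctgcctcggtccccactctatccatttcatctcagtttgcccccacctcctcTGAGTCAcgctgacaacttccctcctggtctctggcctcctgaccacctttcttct
The match lay 56 bases before the start. TGANTCA, which reads the same on both strands, was in 6.75% of all 32851 windows and in 2 of the 10 windows described here (Itgax and Zbtb46). GAGGAA, the core of sites for Spi-family factors such as Spib, was in 23.3% of all windows and in 1 of the 10 (Batf3), and the repeat bound by interferon regulatory factors, GAAA followed after any 2 bases by GAAA, was in 2.98% of all windows and in none of the 10.

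Zbtb46, a zinc finger factor that separates conventional dendritic cells from other myeloid cells and that endothelium also expresses, had the largest fall. It was at 37.4, 40.8 and 31.8 CPM in 2-week females and at 13.5, 10.4 and 10.2 CPM in 65-week females. Males gave 40.8, 33.8 and 41.3 CPM at 2 weeks and 12.4, 18.1 and 10.7 CPM at 65 weeks. The ages were far apart in both sexes. The log2 fold change was -1.55 ± 0.14 in females (edgeR adjusted p = 4.12e-05) and -1.37 ± 0.21 in males (edgeR adjusted p = 0.00114), called under all 14 alternatives in each. As with Tcf4, the 12 endothelial markers fell alongside, with a median log2 fold change of -3.96 in females and -4.43 in males. Their part in the fall of Zbtb46 was not tested.

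Flt3, the receptor that drives dendritic cell development and that lymphoid and multipotent progenitors also carry, was at 26.3, 24.8 and 18.2 CPM in 2-week females and at 18.8, 17.3 and 13.6 CPM in 65-week females. In males it was at 24.6, 22.0 and 20.2 CPM at 2 weeks and at 13.1, 10.4 and 14.2 CPM at 65 weeks. The ages separated in males and overlapped narrowly in females. The fall was -0.72 ± 0.15 on the log2 scale in males (edgeR adjusted p = 0.00506), called under all 14 alternatives, and the female value was -0.34 ± 0.17 (edgeR adjusted p = 0.111), called under 4 of 14. Of 10 haematopoietic stem and progenitor markers 4 were higher and 3 lower in aged females, and 3 were higher and 3 lower in aged males. Mpo, a granule enzyme of myeloid progenitors, gave the most counts of them, with no division by length.

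**Figure D3:**
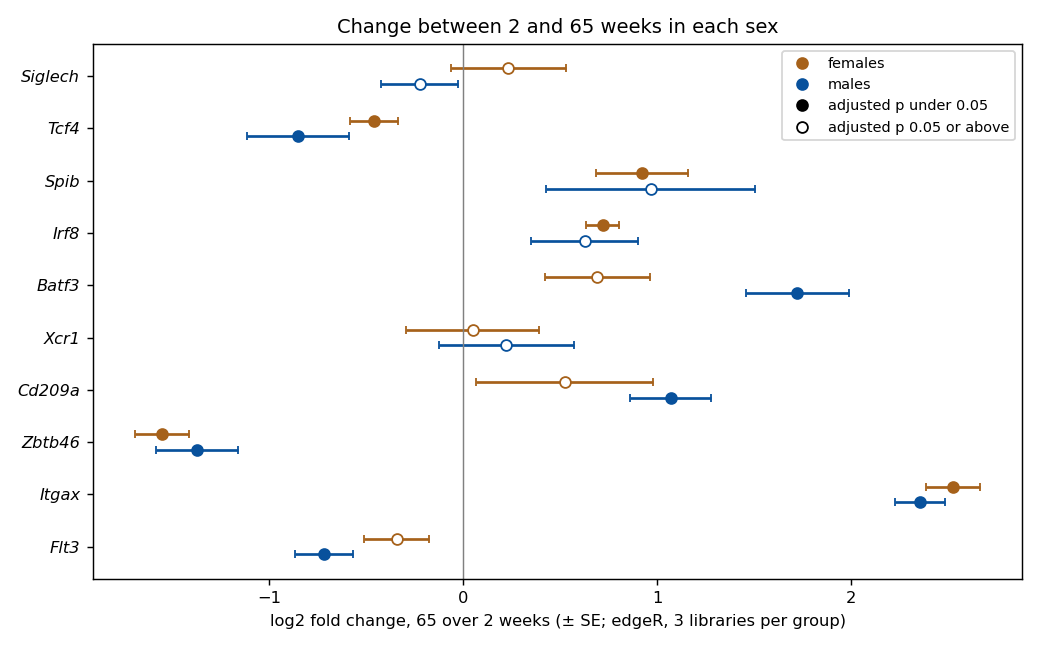
Log2 fold change of each gene, 65 over 2 weeks (horizontal axis), in females and in males; bars are the standard error from edgeR with 3 libraries per group, and filled points have an adjusted p under 0.05. Itgax lies at 2.52 and 2.35, Zbtb46 at -1.55 and -1.37, and Siglech and Xcr1 have bars that reach or nearly reach 0 in both sexes.

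To set the genes beside each other, CPM was divided by exon length. This length counts every base in any annotated exon of the gene, so it can exceed that of any single transcript. Over all 12 libraries the mean was 30.5 CPM per kilobase for Spib and 16.3 for Irf8, followed by Cd209a at 9.97 and Itgax at 9.01. Tcf4 was at 3.63, Flt3 at 2.86, Siglech at 1.74, Zbtb46 at 1.54, Batf3 at 1.42 and Xcr1 at 0.260 CPM per kilobase. The order changed with age: Itgax went from 3.00 ± 0.55 to 15.7 ± 1.32 CPM per kilobase in females (SD, n = 3), while Zbtb46 went from 2.24 ± 0.28 to 0.696 ± 0.114. At 2 weeks in females Itgax therefore lay below Tcf4 (4.21 ± 0.80), and at 65 weeks it lay above it (2.78 ± 0.20). This order rests on the lengths used, 28277 bases for Tcf4 and 4854 for Itgax. In CPM, Tcf4 at 78.6 was not below Itgax at 76.3 in 65-week females.

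Each gene was also set against Ptprc, as a measure of leukocyte RNA in the same library. Siglech had 4.66 to 5.77 counts per 100 Ptprc counts in 2-week females and 1.13 to 2.26 in 65-week females, and 4.95 to 6.63 against 0.941 to 1.51 in males. Itgax went the other way, from 6.87–8.90 to 10.2–13.2 in females and from 9.15–11.7 to 11.8–12.9 in males. On this scale 9 of the 10 genes were lower and 1 higher at 65 weeks in each sex, with no overlap between ages for any of them. The share of all genes that separated on this scale was not computed, so these counts do not set the 10 genes apart. Batf3 in males had 0.787–0.932 counts per 100 Ptprc counts at 2 weeks and 0.540–0.777 at 65 weeks. These ratios are a description with no test, and their denominator itself rose with age.

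**Figure D4:**
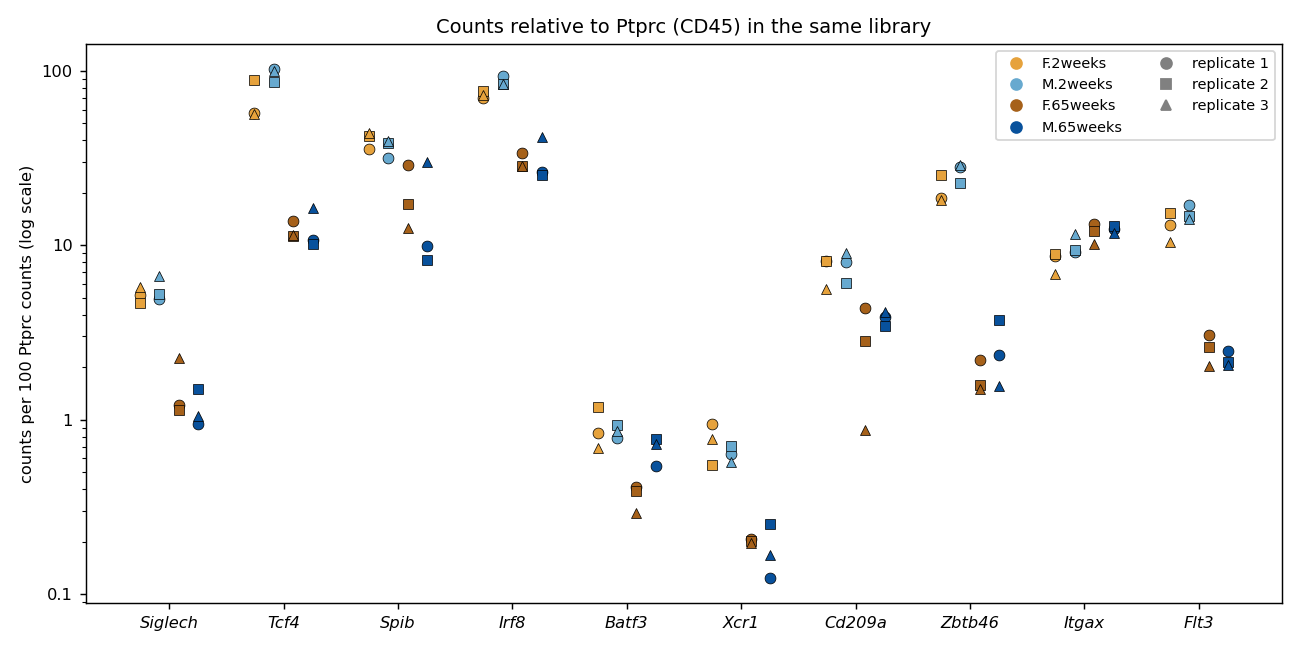
Counts of each gene per 100 Ptprc (CD45) counts of the same library (vertical axis, log scale), for the 10 genes (horizontal axis); points are single libraries, coloured by group and shaped by replicate. The aged libraries lie below the young ones for 9 genes, and above them for Itgax. Ptprc itself rose with age, so a gene unchanged in CPM would also lie lower in the aged libraries.

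The question of sex was asked within each age. At 2 weeks edgeR called 0 of the 10 genes (background 0.0332%), 1 had an unadjusted p under 0.05 (background 17.8%), and DESeq2 called 1 (background 3.18%). That gene was Spib, which did not overlap between young males and young females, the only 1 of the 10 to separate (21.7% of all genes did). Its log2 fold change, male over female, was -0.45 ± 0.11 (edgeR adjusted p = 0.213; DESeq2 adjusted p = 0.0291). B cell markers moved with it: their sums were 284 to 330.0 CPM in young males and 339 to 393 CPM in young females, and their part in the difference was not tested. Itgax was almost level between the sexes at 2 weeks, with a log2 fold change of -0.0083 ± 0.15.

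At 65 weeks edgeR called 0 of the 10 genes between the sexes (background 0.042%), DESeq2 called 0 (background 2.82%), and 2 had an unadjusted p under 0.05 in edgeR (background 10.4%). Those were Flt3, at -0.42 ± 0.18 male over female (edgeR adjusted p = 0.471), and Batf3, at 0.69 ± 0.29 (edgeR adjusted p = 0.451). Siglech, Xcr1 and Batf3 did not overlap between the sexes, 3 of the 10 beside 15.5% of all genes, with Siglech and Xcr1 lower and Batf3 higher in males. The comparison depended on replicate 3 of the 65-week males. Without it 3 genes were called lower in males (background 5.61%): Irf8 at -0.55 ± 0.10 (edgeR adjusted p = 0.026), Tcf4 at -0.55 ± 0.11 (edgeR adjusted p = 0.0321) and Spib at -1.43 ± 0.29 (edgeR adjusted p = 0.0328).

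An interaction of sex and age, fitted to all 12 libraries, asked whether the change with age differed between males and females. edgeR called 0 of the 10 genes (background 0.00635%), DESeq2 called 0 (background 2.32%), and 1 had an unadjusted p under 0.05 in edgeR (background 11.9%). This was Batf3, whose rise was larger in males by 1.03 ± 0.37 on the log2 scale (edgeR adjusted p = 0.3). Without replicate 3 of the 65-week males 1 gene was called (background 4.66%), Tcf4 at -0.77 ± 0.18 (edgeR adjusted p = 0.0389), the fall being larger in males. The calls of Irf8 and Spib in females alone, and of Cd209a, Flt3 and Batf3 in males alone, are thus not shown to differ between the sexes.

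Other genes of the same cell types were counted from 4 lists. Of 16 other plasmacytoid dendritic cell genes, 8 were higher and 1 lower at 65 weeks in females, and 4 were higher and 3 lower in males, which was below the share of all genes called in each sex (59.7% and 55.5%). By direction, 30.2% of all genes were higher and 29.5% lower in females, and 27.0% and 28.5% in males. The median log2 fold change was 0.59 in females and 0.24 in males, beside 0.01 over all genes tested in each sex. Tlr9, a receptor for microbial DNA that B cells also carry, stood at 16.9 ± 1.28 CPM in young and 59.2 ± 5.31 CPM in aged females (SD, n = 3), and at 14.3 ± 0.40 and 42.3 ± 31.1 CPM in males. Ly6d, a surface protein of lymphoid progenitors, B cells and plasmacytoid dendritic cells, rose by 1.91 ± 0.24 on the log2 scale in females and by 1.77 ± 0.40 in males. Runx2, a Runt-family factor of plasmacytoid dendritic cells and of osteoblasts, fell by 0.56 in females and by 0.88 in males on that scale. Cox6a2, a mitochondrial subunit with restricted expression, was lower in aged than in young males, at 1.42 ± 0.14 CPM at 2 weeks against 0.622 ± 0.0077 CPM at 65 weeks. Its female value of -0.54 ± 0.30 on the log2 scale was not called (edgeR adjusted p = 0.160).

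Of 10 other type 1 genes, 5 were higher and 1 lower at 65 weeks in each sex, with medians of 0.51 and 0.62 on the log2 scale. The calls in either direction were near the background of 59.7% and 55.5%, while 30.2% and 27.0% of all genes were called higher. Wdfy4, which type 1 cells need for cross-presentation, stood at 115 ± 11.9 CPM in young and 247 ± 19.3 CPM in aged females, and at 102 ± 16.0 and 215 ± 75.0 CPM in males. Clec9a, their receptor for dying cells, rose by 0.90 ± 0.27 on the log2 scale in males and by 1.14 ± 0.22 in females. Its level was low, with means of 1.67 CPM in young males and 1.95 CPM in young females. Itgae, the integrin CD103, rose by 1.74 ± 0.38 in females from a level of 0.337 CPM. The male value of Itgae, 0.62 ± 0.89, was not called (edgeR adjusted p = 0.577). Tlr3, a sensor of double-stranded RNA, went the other way, with 17.3 ± 2.14 CPM in young and 4.78 ± 1.23 CPM in aged females, and 20.6 ± 1.84 and 3.68 ± 0.90 CPM in males.

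Among 10 other type 2 genes, 7 were higher and 1 lower in aged females, and 5 were higher and 2 lower in aged males. The medians were 0.83 and 0.87. Of all genes 59.7% and 55.5% were called in either direction, and 30.2% and 27.0% were called higher. The galactose-binding lectins Clec10a and Mgl2, which macrophages also carry, led the rise. Clec10a stood at 13.3 ± 1.63 CPM in young and 48.2 ± 6.20 CPM in aged females, and at 13.5 ± 0.44 and 45.02 ± 9.59 CPM in males. Mgl2 stood at 5.50 ± 1.02 and 18.5 ± 4.52 CPM in females, and at 4.29 ± 1.22 and 16.0 ± 1.17 CPM in males. Cd209d, a relative of Cd209a, fell by 1.39 in females and by 1.47 in males on the log2 scale, the reverse of Cd209a in males. The level of Cd209d was low, at 1.62 CPM in young and 0.561 CPM in aged females, and 1.66 and 0.544 CPM in males. Tnfrsf9, a costimulatory receptor of activated cells, fell by 2.22 in males, and its female value of -1.26 ± 0.51 was not called (edgeR adjusted p = 0.0616).

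The last list held genes of growth, migration and antigen presentation. Of its 14 genes tested, 12 were higher and 1 lower in aged females, and 11 were higher and 1 lower in aged males, with medians of 1.14 and 1.26, where 30.2% and 27.0% of all genes were called higher. Cd74, the invariant chain of MHC class II, stood at 338 ± 15.7 CPM in young and 3564 ± 462 CPM in aged females, and at 266 ± 33.5 and 3105 ± 1502 CPM in males. Ciita, the transactivator of MHC class II genes, rose by 3.52 ± 0.17 and 3.89 ± 0.50 on the log2 scale. Fscn1, an actin-bundling protein of mature dendritic cells that other cell types also make, fell, standing at 215 ± 58.3 CPM in young and 20.5 ± 2.44 CPM in aged females, and at 263 ± 37.1 and 13.7 ± 5.84 CPM in males. B cells and macrophages use MHC class II as well. Of 12 B cell markers 9 were higher in each sex, with 1 lower in females and 2 lower in males. The part of B cells and macrophages in these rises was not tested. Without replicate 3 of the 65-week males, the male counts were 4 higher and 3 lower, 5 and 1, 5 and 2, and 11 and 2 in the same order of lists.

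**Figure D5:**
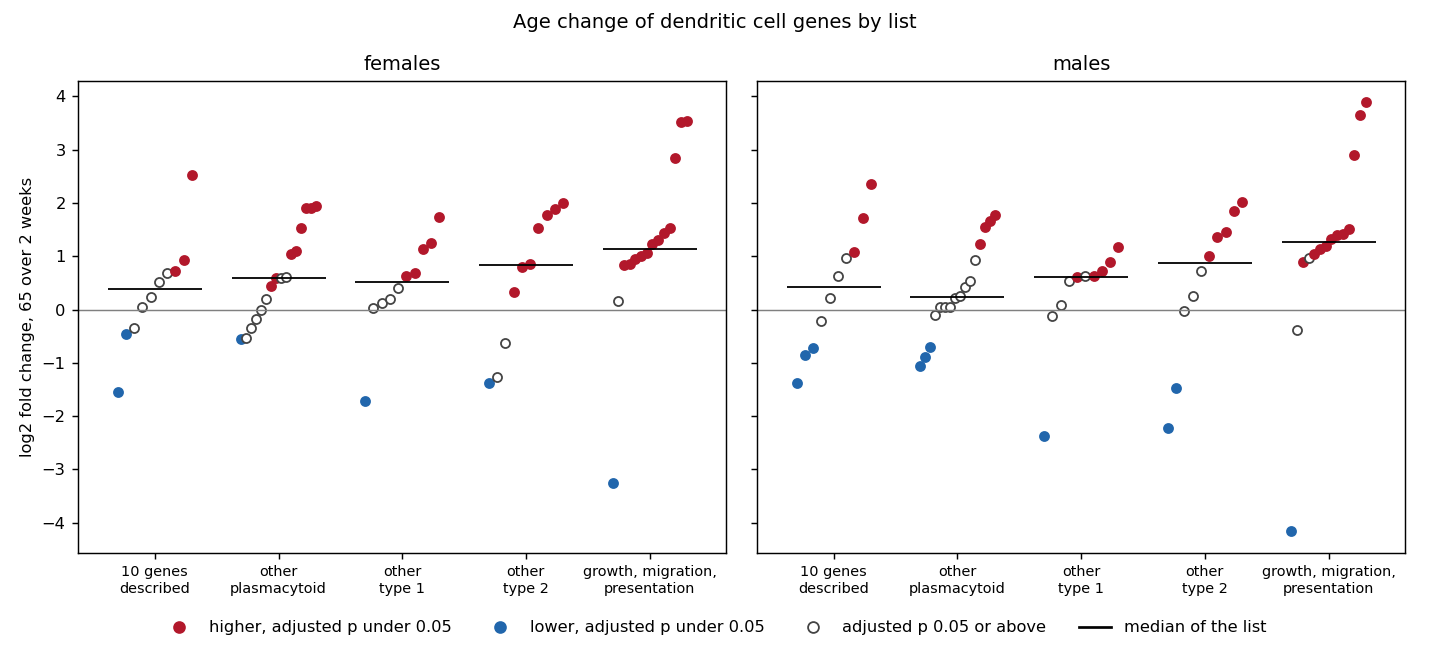
Log2 fold change, 65 over 2 weeks (vertical axis), of the 10 genes described and of the 4 other lists of dendritic cell genes (horizontal axis), in females (left) and males (right). Each point is a gene, filled where its adjusted p in edgeR was under 0.05, and the line is the median of the list; the list of growth, migration and presentation genes has the highest medians, 1.14 and 1.26, and the plasmacytoid list has medians of 0.59 and 0.24.

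The remaining marker lists gave the setting of these levels. Of 7 plasma cell markers 5 were higher and 1 lower in aged females, and 4 were higher and 2 lower in aged males. Jchain, the joining chain of secreted antibodies and the one with the most counts over all libraries, averaged 4.98 CPM in young and 957 CPM in aged females, and 6.62 and 956 CPM in males. Of 10 T and NK cell markers 9 were higher and 1 lower in females, and 7 were higher and 1 lower in males, with sums of 65.1–85.4 CPM at 2 weeks and 136–235 CPM at 65 weeks. Most counts of this list came from Cd4, which some macrophages and dendritic cells also express.

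For the 9 genes with enough counts, the genes of most similar profile over the 12 libraries were ranked by the root mean square difference of centred log2 CPM, as a description. Irf8 was closest to Pde7a (0.067), Zscan20 (0.106) and Nfatc1 (0.110). Spib was closest to Cpm (0.199), Bach2 (0.246), a repressor of B cell differentiation, and Sbk1 (0.278). Irf8 ranked 40 of 10400 genes in likeness to Spib, but at the same difference of 0.407 Spib ranked 3388 in likeness to Irf8. Tcf4 was closest to Inppl1 (0.097), Rras2 (0.104) and Epb41l2 (0.105), and Flt3 to Adgrg1 (0.123) and Zfp467 (0.143).

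Zbtb46 was most like Ipo11 (0.142), Tacc2 (0.149) and Nt5dc2 (0.157). Itgax was most like Rps27rt (0.183), Slamf7 (0.226) and Alcam (0.230), where Rps27rt resembles another ribosomal gene closely and its counts are uncertain. Siglech was most like Zfp689 (0.198), Cd7 (0.221), itself on the plasmacytoid list, and Rrp1b (0.224). Batf3, with few counts, was nearest to Dennd1c (0.258), Srebf2 (0.258) and Satb1 (0.266), and Cd209a to Kmo (0.372), B3gnt8 (0.376) and Pkib (0.426). Among the genes ranked here, which leave out Xcr1 for its few counts, the closest pair was Tcf4 and Flt3. Their difference of 0.274 ranked 537 of 10400 seen from Tcf4 and 887 seen from Flt3.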

How the data were processed

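The authors deposited whole-number counts per Ensembl gene for 12 RNA-seq libraries (paired reads of 100 nucleotides; total RNA kit per the protocol, polyA RNA per the label). The processing notes name TopHat2, HTSeq and mm9, whereas the study's methods name another aligner, counter and build; which of them made the table, and whether strand was used, is not given in the sources used here. Antisense RNAs annotated over exons of Flt3, Tcf4, Xcr1, Zbtb46 and Batf3 could not be told apart from them.

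Symbols and exon lengths came from GENCODE M39, which held 31052 of the 37620 identifiers and 99.3% of the counts. CPM are counts scaled to a library total of 1000000. Replicates of a group differed by more than counting noise (chi-square per degree of freedom of at least 26.6). Tests used edgeR 4.0.16 (quasi-likelihood, TMM scaling, filterByExpr with a minimum count of 10) on the 6 libraries compared, or all 12 for the interaction. Benjamini-Hochberg adjustment ran over all genes tested. The procedure was also run on simulated counts with a fixed spread and few changed genes. By age 59.7% and 55.5% of all genes were called, so that simulation does not show how the tests behave there. DESeq2 1.42.0 was an alternative, with other scalings, no filter, thinning, 1 model for all libraries, a replicate block and each library left out. Members and lists were chosen with earlier results of these data known. Named beside the members were, per list, sex and direction, the 2 called genes with the largest change whose libraries did not overlap, and per member the 3 genes of most alike profile, from log2(CPM + 0.1), among autosomal protein-coding genes with a mean log2 CPM of at least 2; 1 of these is not reported here. Of the list genes, Flt3l was not analysed here, and Csf2 did not pass the filter. Promoter sequences came from the RefSeq table on GRCm38.p6, which held 9 of the 10 genes, matched by symbol. The columns all matched a sample label.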

Additional observations from a re-analysis of the deposited data

How the results depend on the processing

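The counts of called genes kept within 1.5 times the reported value under every alternative for the age comparisons: 4 to 7 in females and 5 to 7 in males. Leaving out 1 library gave 5 to 7 in each sex. The number of all genes called moved as well. In females it ran from 7434 of 15450 tested (without F.2weeks replicate 1) to 9495 of 18275 (DESeq2). In males it ran from 6450 of 15099 (without M.2weeks replicate 1) to 9564 of 15437 (without M.65weeks replicate 3). DESeq2 called 1 gene, Spib, between the sexes at 2 weeks (background 3.18%). Leaving out 1 library gave 0 to 3 calls between the sexes at 65 weeks and 0 to 1 for the interaction. The highest in both came without replicate 3 of the 65-week males (background 5.61% and 4.66%). Scaling by library totals alone moved the median log2 fold change of all genes to -0.13 in females and -0.11 in males.

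Same-numbered replicates did not deviate together (correlations from -0.355 to 0.14), so the numbers were not used as pairs. With a replicate block 6 genes were called by age in females, the added gene being Flt3, beside 8269 of all 15120 genes tested. In males 6 were called, beside 7593 of 14959. Each other comparison called 0, beside 5 of 15081 genes between the sexes at 2 weeks, 7 of 14287 at 65 weeks and 0 of 15747 for the interaction. The interaction value of Spib turned to -0.17.

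Of the small differences that were not called, several changed sign, and the cause was not tested. Xcr1 in females went to -0.082 under library totals, -0.078 under totals without the 50 most abundant genes and -0.012 after thinning. Itgax between the sexes at 2 weeks went to 0.0086 under library totals, 0.022 after thinning and 0.025 with all 12 libraries in 1 model. With 1 library left out, log2 fold changes by age ran from -0.19 to 0.41 for Siglech and from -0.24 to 0.30 for Xcr1 in females, and from -0.095 to 1.33 for Spib in males. Between the sexes at 2 weeks they ran from -0.21 to 0.043 for Flt3, from -0.10 to 0.010 for Irf8, from -0.026 to 0.14 for Zbtb46 and from -0.13 to 0.14 for Itgax. At 65 weeks they ran from -0.55 to 0.10 for Irf8, from -0.55 to 0.067 for Tcf4 and from -0.064 to 0.82 for Cd209a. For the interaction they ran from -0.50 to 0.12 for Irf8, from -0.14 to 0.40 for Xcr1, from -0.077 to 0.37 for Zbtb46 and from -0.97 to 0.41 for Spib. Xcr1 had as few as 18 counts in a library.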

Other observations

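Spib was set beside the B cell markers of the same library, a ratio chosen after its values were seen and given as a description. The libraries held 21.1, 18.9 and 19.7 Spib counts per 100 counts of the 12 B cell markers in 2-week females and 16.2, 17.4 and 18.1 in 2-week males. At 65 weeks the ratio was 11.9, 11.03 and 7.91 in females and 9.13, 8.82 and 10.7 in males, so all aged libraries lay below all young ones. The summed B cell markers themselves rose with age, so any gene that rose less than this sum would also give a lower ratio.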
